A study of Mus musculus with 10 samples.

Results

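The E2F and DP transcription factors were followed through the final step of oocyte maturation in wild type and Patl2-KO mice. The 10 members, E2f1 to E2f8, Tfdp1 and Tfdp2, were taken by gene family, with earlier results of these data known, and no measured value entered the rule. They are 10 of the 30176 genes that had a transcript cluster of their own on the array. A transcript cluster is the set of probes that the array summarises as 1 gene or transcript. Each member was read from the cluster with the highest mean over all 10 arrays. All 10 had at least 1 such cluster, and E2f3 had a second one, which made 11 clusters in all.

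E2F proteins bind the promoters of genes that a cell needs to enter S phase. Most of them do so as a dimer with a DP protein, the product of Tfdp1 or Tfdp2. E2f1, E2f2 and E2f3 are the activators, which switch these genes on once the retinoblastoma protein releases them. E2f4 and E2f5 act mainly as repressors that carry the pocket proteins p107, p130 and Rb to the same promoters, as in the DREAM complex of resting cells. E2f6 represses without a pocket protein, in the Polycomb complex PRC1.6. E2f7 and E2f8 are the atypical repressors, which bind DNA without a DP partner. The oocyte passes from prophase arrest to metaphase II without an S phase, and its mRNAs are stored while it grows and are translated or degraded during maturation. Patl2 is an RNA-binding protein of the growing oocyte.

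Oocytes at the germinal vesicle (GV) stage, arrested in prophase I, and at metaphase II (MII) were compared between the genotypes. There were 2 WT and 3 Patl2-KO samples at each stage, 1 array each. The Patl2-KO mice were homozygous for a Patl2 allele of the C57BL/6NTac tm1a line whose critical exon had been removed by EIIa-Cre. That transgene is active throughout the early embryo, so the exon was missing in every tissue and not in the oocyte alone. All mice had received 5 units of PMSG, and GV oocytes were taken 44 h later. For MII oocytes, 5 units of hCG followed 48 h after PMSG and collection came 12 h after that, according to the sample labels. Follicular cells had been removed with 0.1 mg/ml hyaluronidase for 10 min and by pipette. A sample pooled 20 to 32 GV or 28 to 46 MII oocytes, and 250 pg of RNA was labelled, so a lower level per oocyte and fewer oocytes with the transcript cannot be told apart. The study reported that more Patl2-KO than WT oocytes released after full stimulation had not reached MII, and that Patl2-KO oocytes were smaller. Its methods do not say whether MII oocytes were sorted by stage before pooling, and a mixture of stages was not tested. The study's methods give an age of 3 to 8 weeks for the females from which GV oocytes were collected. The labels call the samples biological replicates, but the animals behind each sample are not given in the sources used here. The p-values therefore measure only the spread between these samples, and whether it covers the spread between animals is not known.

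All levels below are log2 values after RMA, the normalisation that the authors applied to the 10 arrays together. Differences are log2 differences from a limma model fitted to all 65956 clusters, with 1 mean for each of the 4 groups. A difference was called at an adjusted p (Benjamini-Hochberg over all clusters) under 0.05. The study's own threshold, an unadjusted p under 0.05 with a fold of at least 2, is given beside it from the same model. With 2 arrays in each WT group, the number of arrays limits every estimate. Probes of different genes respond differently, so levels were compared between arrays and never between genes.

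The array median lay between 4.48 and 4.56, the lowest correlation within a group was 0.989, and 90% of the negative control probes lay below 6.14 to 6.46, depending on the array. Patl2 itself measured 11.70 and 10.92 in WT GV oocytes against 7.71, 7.36 and 8.07 in Patl2-KO GV oocytes, and 8.73 and 8.55 against 6.44, 6.10 and 6.59 at MII, so each library went with its label. Of 16 oocyte markers, 15 lay above the negative controls on all arrays. Of 21 granulosa and cumulus cell markers measured, 2 did, as did 1 of 13 markers of theca, stroma, vessels and blood. The hybridisation controls, which are spiked into every sample, separated the genotypes: they averaged 11.25 to 11.46 in WT GV and 11.34 to 11.39 in WT MII samples, and 11.71 to 11.98 and 11.58 to 11.68 in the Patl2-KO samples.

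E2F factors are known to act on the promoters of their own family. In all, 4 forms of the E2F site, TTTCCCGC, TTTCGCGC, TTTGCCGC and TTTGGCGC, were looked for on both strands of the members' promoters. RefSeq promoter sequences (GRCm38.p6, 250 bases before to 50 after each start) covered 8 of the 10 members in 12 windows, and E2f4 and E2f5 had none in that table. A match stood in at least 1 window of 4 of these 8 genes, E2f2, E2f3, E2f7 and Tfdp1, whereas 2.26% of all 32851 windows and 2.6% of all 27025 genes in the table held one. In 3 of the genes the match lay before the start, and 60 bases around it are shown so that the shared letters can be compared. The capitals mark the match.
E2f3, chr13:29986064-29986123, minus strand: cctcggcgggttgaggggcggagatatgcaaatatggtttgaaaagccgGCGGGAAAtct
E2f7, chr10:110745215-110745274, plus strand: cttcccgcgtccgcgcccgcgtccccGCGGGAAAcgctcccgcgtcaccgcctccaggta
Tfdp1, chr8:13338682-13338741, plus strand: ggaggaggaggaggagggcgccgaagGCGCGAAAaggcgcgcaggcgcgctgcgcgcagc
E2f3 and E2f7 shared the form GCGGGAAA, the reverse strand of TTTCCCGC, and Tfdp1 held GCGCGAAA, the reverse strand of TTTCGCGC. These are matches of letters and not measured binding sites. Of the 3 genes, only Tfdp1 was above background in these oocytes.

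Of the 10 members, 7 were above the negative controls on all 10 arrays and 3 on none. The 7 were the activators E2f1 and E2f2, the repressors E2f4, E2f5 and E2f8, and both DP genes. The 3 without a measurable level were the activator E2f3, with values of 4.28 to 4.80, the Polycomb-associated E2f6 at 4.41 to 4.82, and the atypical E2f7 at 4.64 to 4.78. Their differences have no interpretable direction and no fold is given for them. The second cluster of E2f3 was lower still and was called in no comparison.

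**Figure D1:**
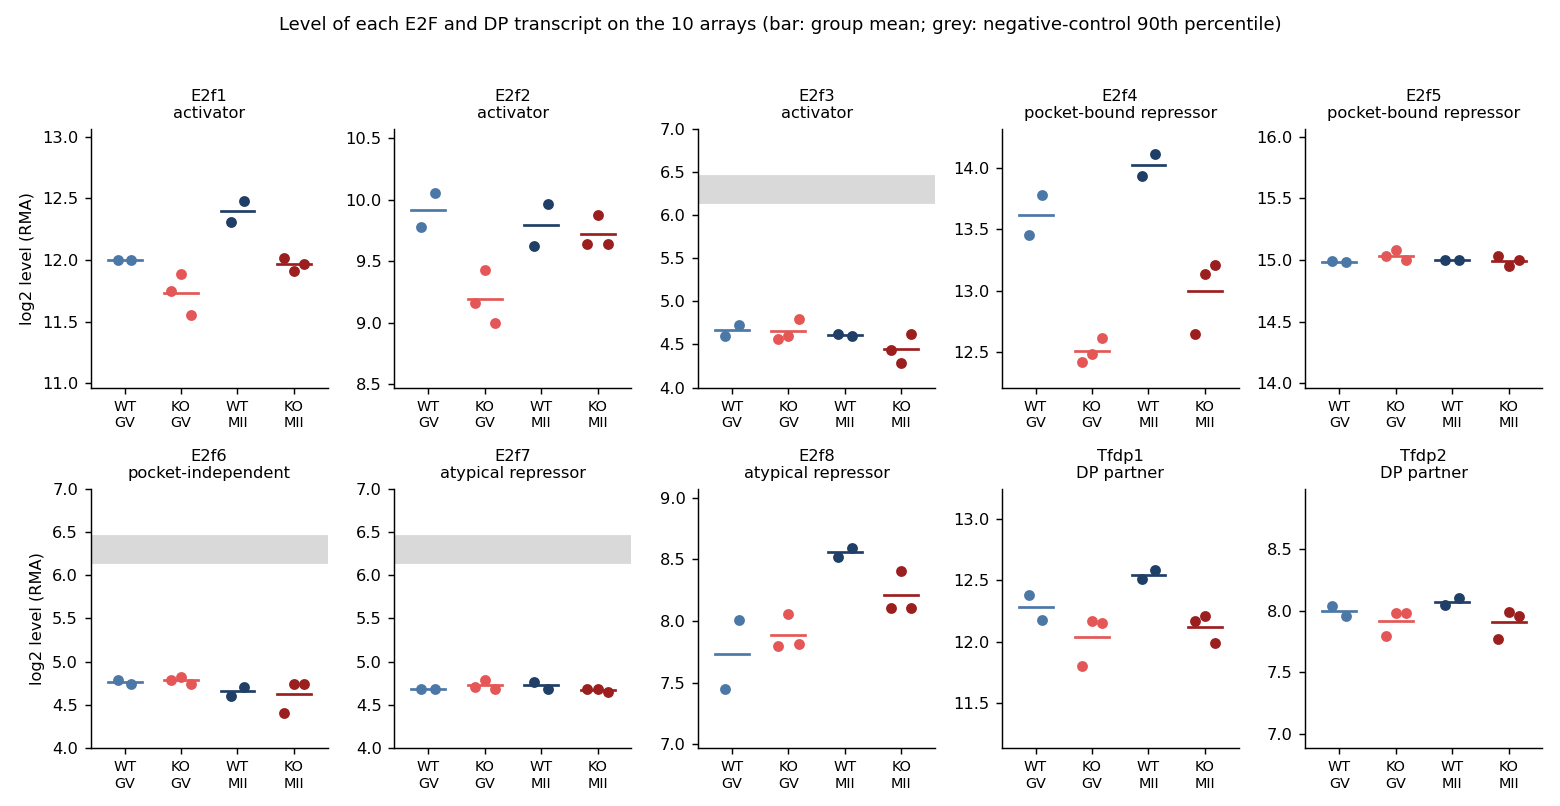
Level of each member on every array (y axis, log2 after RMA; 1 panel per gene) for WT and Patl2-KO (KO) oocytes at GV and MII; points are arrays, bars are group means and the grey band, where the panel reaches it, is the range of the negative-control 90th percentile. All Patl2-KO points of E2f4 lie below all WT points, the points of E2f5 lie within 14.95 to 15.08, and E2f3, E2f6 and E2f7 stay below the band.

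E2f4, the pocket-protein-bound repressor of resting cells, was the one member that fell in Patl2-KO oocytes by the adjusted test. It measured 13.45 and 13.78 in WT GV oocytes and 12.42, 12.49 and 12.62 in Patl2-KO GV oocytes. At MII it measured 13.93 and 14.11 in WT and 12.65, 13.14 and 13.21 in Patl2-KO. The groups did not overlap at either stage, and even the highest Patl2-KO array lay below the lowest WT array of either stage.

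The difference of E2f4 was -1.11 (SE 0.18, limma, adjusted p = 0.0755) at GV, a level lower by a factor of 2.15. The MII difference was -1.02 (SE 0.18, limma, adjusted p = 0.0518), or a factor of 2.03. Both values missed the adjusted threshold and passed the study's own one as applied to this model. By the values that the study itself printed, E2f4 reached a fold of 2 at GV and fell short of it at MII. Averaged over both stages, the model gave -1.06 (SE 0.13, 95% interval -1.36 to -0.77, limma, adjusted p = 0.0104), which was called. The effect at MII minus that at GV was 0.09 (95% interval -0.50 to 0.67, limma, adjusted p = 0.974), so no difference between the stages was detected, within the limits of that interval. E2f4 belongs to the genes that the study listed as altered from these same samples, so that list is not independent evidence of its direction.

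Leaving out 1 array at a time left the average of E2f4 at -1.15 to -0.98 (limma, adjusted p = 0.0138 to 0.0499), called in all 10 fits. At GV its fold fell below 2 without WT GV replicate 2, and at MII without WT MII replicate 2 or Patl2-KO MII replicate 1. The hybridisation controls were higher on each Patl2-KO array than on any WT array. The granulosa markers moved by a median of 0.16 at GV and 0.22 at MII in Patl2-KO, against 0.02 and -0.02 for all clusters. Of the 21, 14 were above zero at GV and 17 at MII. None was called between the genotypes, against 0.121% of all clusters at GV and 0.829% at MII. Tnfaip6 passed the study's threshold at MII, at 1.25 (limma, unadjusted p = 0.0410). The summed level of the 21 ranged from 10.60 to 11.92 in WT GV and 11.60 to 11.83 in Patl2-KO GV samples. At MII it ranged from 10.43 to 10.44 in WT and 10.64 to 11.63 in Patl2-KO samples. The part of the hybridisation signal or of granulosa cells in the E2f4 difference was not tested.

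E2f5, the closest relative of E2f4 and likewise a partner of the pocket proteins, showed no difference of that size. At GV its arrays read 14.99 and 14.98 in WT and 15.03, 15.08 and 15.00 in Patl2-KO oocytes. At MII they read 15.00 and 15.00 in WT and 15.03, 14.95 and 15.00 in Patl2-KO oocytes, so that all values lay close together. The difference between the genotypes was 0.05 (95% interval -0.09 to 0.19) at GV and -0.00 (95% interval -0.14 to 0.14) at MII. These intervals exclude a change of the size seen for E2f4. E2f5 is, however, near the top of the scale, with 0.867% of clusters above it, where differences were generally smaller: the 1010 clusters with a mean of at least 14 had a median size of the genotype difference of 0.14 at GV and 0.19 at MII, against 0.24 and 0.30 for the 2170 clusters between 11 and 13. In the reference annotation, E2f5 also overlaps the protein-coding gene Rbis, and E2f1 overlaps Necab3. The strand read by the probes is not given in the sources used here.

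The difference between the 2 repressors was present on every array. E2f5 minus E2f4 rose from a mean of 1.37 in WT GV to 2.53 in Patl2-KO GV oocytes, and from 0.98 to 1.99 at MII. The lowest Patl2-KO value, 1.79, was above the highest WT value, 1.54. Since the zero of such a score depends on the probes, only its shift between groups, 1.16 at GV and 1.02 at MII, can be read.

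The activator E2f1 was lower in Patl2-KO oocytes at both stages, by less than E2f4, and did not pass the adjusted test. WT GV oocytes gave 12.00 on both arrays and Patl2-KO GV oocytes 11.75, 11.89 and 11.55. At MII the WT arrays gave 12.31 and 12.48 and the Patl2-KO arrays 12.02, 11.91 and 11.97. The groups did not overlap at either stage. The differences were -0.27 (limma, adjusted p = 0.485) at GV, -0.43 (limma, adjusted p = 0.135) at MII and -0.35 (SE 0.07, 95% interval -0.52 to -0.17, limma, adjusted p = 0.0654) over both. The WT GV arrays agreed to the last deposited digit, as they did for 4221 of all clusters, which is a property of the values and no measure of their precision.

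E2f2, the second activator above background, was lower in Patl2-KO oocytes at GV and not at MII. It read 9.78 and 10.05 in WT GV and 9.16, 9.43 and 8.999 in Patl2-KO GV oocytes, with no overlap. The MII arrays of WT oocytes, 9.62 and 9.97, enclosed the Patl2-KO arrays, 9.64, 9.88 and 9.64. The difference was -0.72 (SE 0.16, limma, adjusted p = 0.176) at GV and -0.08 (95% interval -0.45 to 0.30) at MII. The change of this effect between the stages was 0.64 (SE 0.23, limma, unadjusted p = 0.0242, adjusted p = 0.774) and was not called.

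Of the atypical repressors only E2f8 could be read. It measured 7.45 and 8.01 in WT GV and 7.79, 8.06 and 7.81 in Patl2-KO GV oocytes, so the groups overlapped. At MII the WT arrays, 8.52 and 8.59, were both above the Patl2-KO arrays, 8.11, 8.41 and 8.11. The differences, 0.16 (95% interval -0.24 to 0.56) at GV and -0.35 (95% interval -0.75 to 0.05) at MII, both included 0. The value at GV turned to -0.12 without WT GV replicate 1.

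Tfdp1 and Tfdp2 encode the DP proteins with which E2f1 to E2f6 bind DNA. Tfdp1 read 12.38 and 12.18 in WT GV against 11.80, 12.17 and 12.15 in Patl2-KO GV oocytes, and 12.51 and 12.58 against 12.17, 12.21 and 11.99 at MII. The groups were separate at both stages, at GV by only 0.01. The differences were -0.24 (limma, adjusted p = 0.663) at GV, -0.42 (limma, adjusted p = 0.226) at MII and -0.33 (95% interval -0.54 to -0.12, limma, adjusted p = 0.138) over both. Tfdp2 varied little, from 7.77 to 8.10 over all arrays, and its differences were -0.08 at GV and -0.17 at MII, with intervals that included 0 at both stages.

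**Figure D2:**
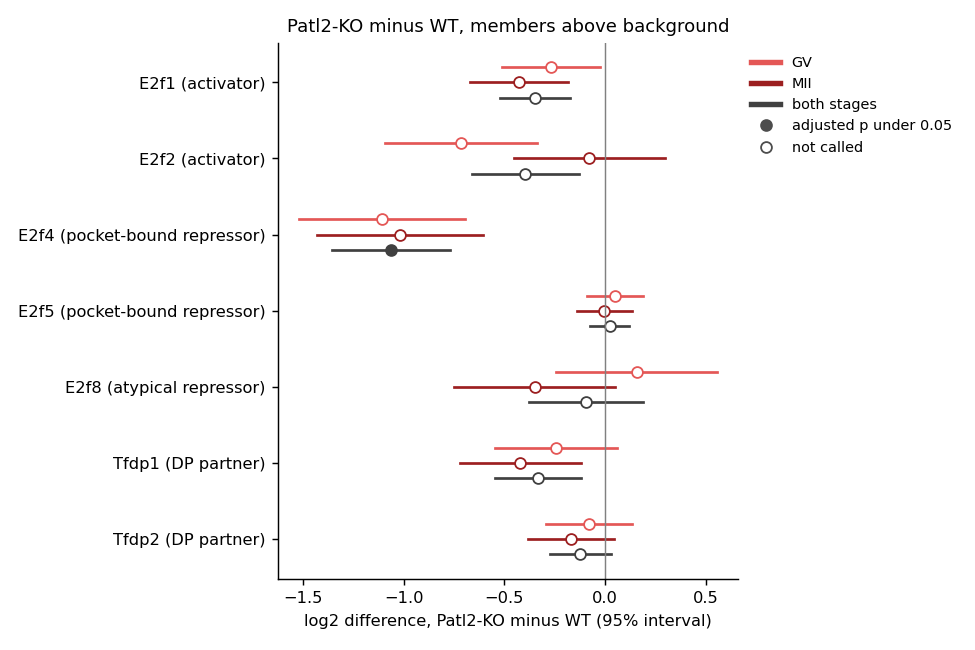
Patl2-KO minus WT for the 7 members above background (x axis, log2 difference) for GV, MII and the average of the stages; points are limma estimates, lines are 95% intervals and a filled point is called at an adjusted p under 0.05. The 1 filled point is the average of E2f4 at -1.06, and the intervals of E2f5 lie within -0.14 and 0.19.

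Counted over the family, 0 of the 10 members were called at GV, where 0.121% of all clusters were, and 0 at MII, where 0.829% were. In the average over both stages 1 was called, E2f4, against 1.89% of clusters. At the study's threshold, E2f4 was again the 1 member at GV (0.725% of clusters), at MII (1.51%) and in the average (0.541%). At an unadjusted p under 0.05, the members were E2f1, E2f2 and E2f4 at GV, 3 of 10 against 9.23% of clusters. At MII they were E2f1, E2f4 and Tfdp1, against 12.3%, and in the average all of these 4, against 14.4%. Arrays of the genotypes did not overlap for 5 members at GV, including E2f5 by a margin of 0.01, and for 6 at MII, including the undetected E2f7, whereas 21% and 28% of all clusters did not overlap.

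Among the 7 detected members the estimate was below zero for 5 at GV and for 7 at MII. The median over all 10 was -0.04 at GV and -0.17 at MII, against 0.02 and -0.02 for all clusters. The 95% interval excluded 0 for E2f1, E2f2 and E2f4 at GV and for E2f1, E2f4 and Tfdp1 at MII. It included 0 for the other detected members. The share of all clusters below zero was not counted, and the count describes the family without a test.

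Activators and repressors were then set against each other on each array. The mean of E2f1 and E2f2 was lower in Patl2-KO oocytes by 0.49 at GV (10.89 to 11.02 in WT, 10.27 to 10.66 in Patl2-KO) and by 0.25 at MII (10.97 to 11.23 and 10.81 to 10.90), with no overlap at either stage. The mean of E2f4 and E2f5 was lower by 0.53 and 0.51, of which E2f5, with its differences of 0.05 and -0.00, made up next to nothing. The activator mean minus this repressor mean, which leaves out E2f8, therefore moved little at GV, by 0.04. The Patl2-KO GV arrays of -3.54 to -3.12 lay around the WT GV arrays of -3.36 and -3.34. At MII this score moved by 0.26, and the Patl2-KO arrays, -3.30 to -3.01, were all above the WT arrays, -3.49 and -3.33. The mean of E2f1 to E2f3 minus that of E2f4 to E2f8 moved by -0.16 at GV. It was -0.31 and -0.28 in WT and -0.52 to -0.41 in Patl2-KO GV oocytes, with no overlap. At MII it moved by 0.07, with overlap. That score includes the 3 members below background, and the sign at GV depended on the members included.

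Set against E2f4 alone, the other members shifted more. E2f1 minus E2f4 was -1.45 and -1.78 in WT GV oocytes and -0.67, -0.60 and -1.07 in Patl2-KO GV oocytes, a shift of 0.84. At MII the values were -1.62 and -1.63 against -0.62, -1.23 and -1.24, a shift of 0.59. The corresponding shifts were 0.39 and 0.94 for E2f2, 0.87 and 0.60 for Tfdp1, and 1.27 and 0.67 for E2f8. These scores share E2f4 and have no test of their own.

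**Figure D3:**
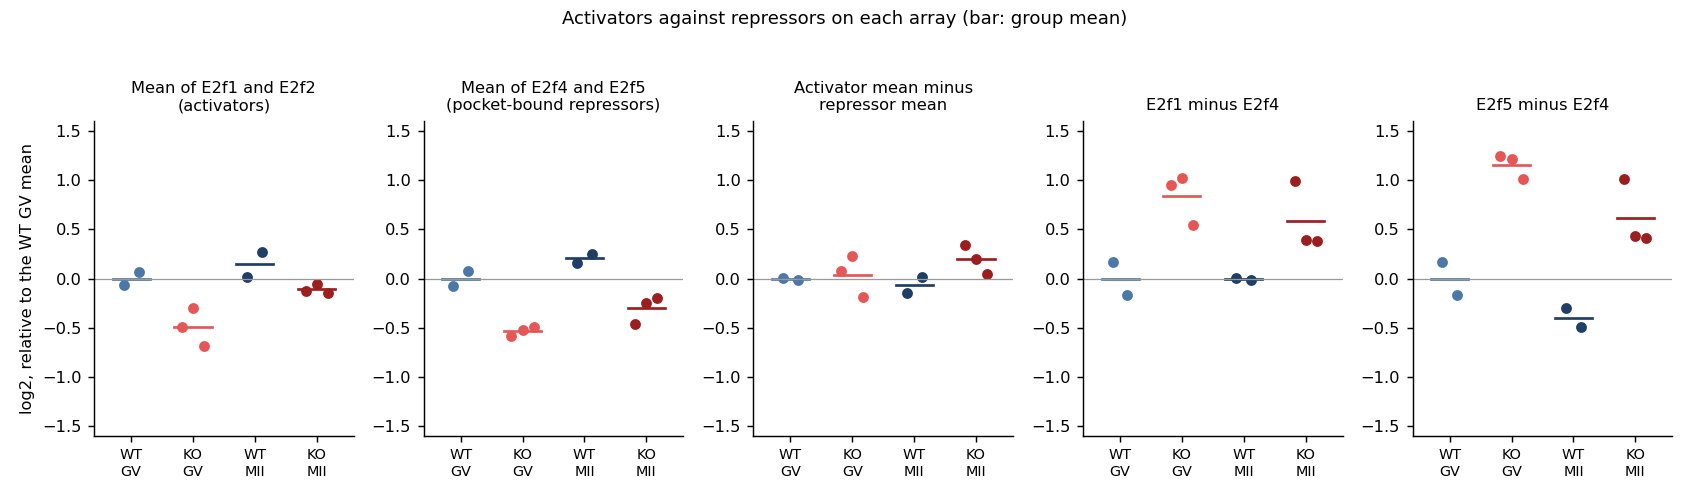
Activator and repressor scores on each array (y axis, log2, relative to the WT GV mean of the same score; points are arrays, bars group means). The mean of E2f1 and E2f2 and that of E2f4 and E2f5 are both lower in Patl2-KO (KO) GV oocytes. Their difference shifts by 0.04 at GV and 0.26 at MII, and E2f5 minus E2f4 shifts by 1.16 and 1.02.

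Maturation from GV to MII was the second axis of the design. Every sample was labelled from the same mass of RNA, and the arrays were normalised together. Differences between the stages, here and in the lists below, are therefore relative to the labelled RNA and are not amounts per oocyte. The study reported less RNA per oocyte at MII than at GV. A rise can therefore be smaller or absent per oocyte, and a fall larger. Levels per oocyte were not tested. In WT oocytes 1 of the 10 members was called, E2f8, against 7.15% of clusters, and in Patl2-KO oocytes 0 were, against 10.5%. No member reached the study's threshold in either genotype, where 5.43% of clusters did in WT and 5.43% in Patl2-KO oocytes. At an unadjusted p under 0.05 there were 2 members in WT (E2f1 and E2f8, against 18% of clusters) and 3 in Patl2-KO oocytes (E2f1, E2f2 and E2f4, against 22.9%). The median over the members was 0.06 in WT and 0.04 in Patl2-KO oocytes, against 0.02 and -0.01 for all clusters.

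E2f8 rose in WT oocytes by 0.83 (SE 0.19, 95% interval 0.39 to 1.27, limma, adjusted p = 0.0380), a 1.77-fold higher level at MII relative to the labelled RNA. The call rested on single arrays. It was lost in 7 of the 10 fits that left 1 array out and held without WT GV replicate 2, Patl2-KO GV replicate 2 or Patl2-KO MII replicate 2. Over these fits the difference ranged from 0.55 without WT GV replicate 1 to 1.11 without WT GV replicate 2. In Patl2-KO oocytes the difference was 0.32 (95% interval -0.04 to 0.68, limma, adjusted p = 0.273), and the effect at MII minus that at GV, -0.51 (95% interval -1.07 to 0.06, limma, adjusted p = 0.863), was not called.

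The other members showed smaller differences between the stages, none of them called on the deposited scale. E2f1 was higher at MII by 0.40 (limma, adjusted p = 0.0914) in WT and 0.24 (limma, adjusted p = 0.176) in Patl2-KO oocytes, with no overlap between the stages in either genotype. E2f4 was higher by 0.41 (95% interval -0.05 to 0.86) in WT and 0.49 (95% interval 0.12 to 0.86, limma, adjusted p = 0.102) in Patl2-KO oocytes. E2f2 differed by -0.12 in WT (0.22 after a second quantile normalisation) and by 0.52 (limma, adjusted p = 0.0617) in Patl2-KO oocytes, where all MII arrays were above all GV arrays. Tfdp1 differed by 0.26 and 0.08, and Tfdp2 by 0.08 and -0.01 (0.41 and 0.25 after a second quantile normalisation). E2f5 differed by 0.01 in WT and -0.05 in Patl2-KO oocytes, and this last value became 0.28 (limma, adjusted p = 0.0328) when the arrays were quantile normalised once more. With that setting 6 members were called in each genotype, and E2f1 reached 0.94 in WT and 0.70 in Patl2-KO, E2f4 0.76 and 0.88, and Tfdp1 0.80 and 0.53.

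That second normalisation moved bright clusters of MII arrays as a whole. The median MII minus GV difference of the 3788 clusters with a mean of at least 11 went from -0.00 to 0.44 in WT and from -0.04 to 0.35 in Patl2-KO oocytes. The median of all clusters stayed at 0.02 to 0.03 in WT and went from -0.01 to 0.03 in Patl2-KO oocytes. E2f1, E2f4 and Tfdp1 kept their direction under this setting and changed in size, whereas E2f5 in Patl2-KO oocytes turned. The genotype differences moved much less, with medians of the same clusters of -0.05 and 0.03 at GV and -0.05 and -0.01 at MII.

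**Figure D4:**
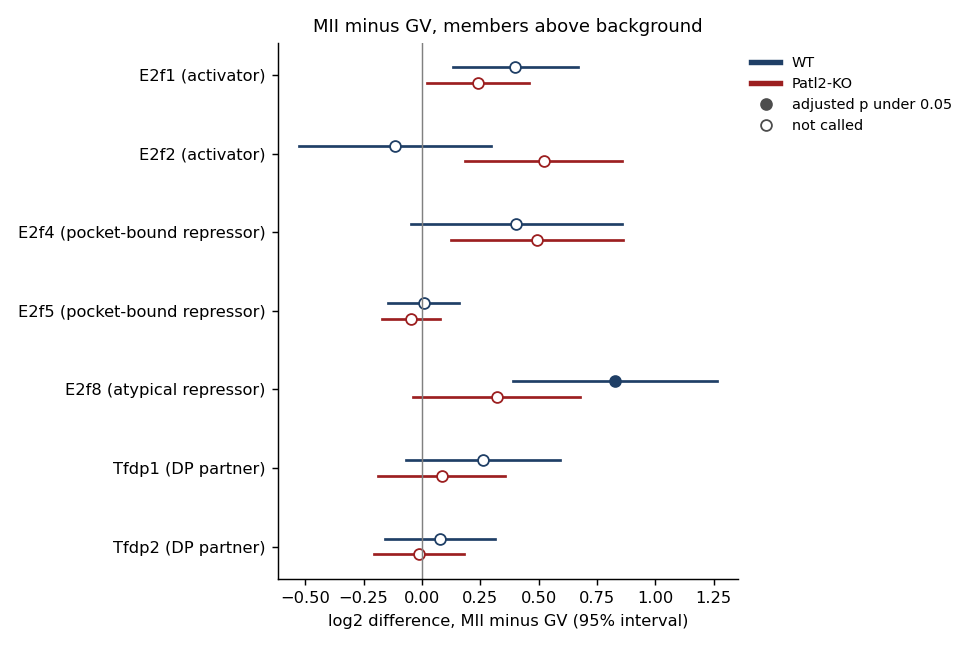
MII minus GV for the 7 members above background (x axis, log2 difference) in WT and Patl2-KO oocytes; points are limma estimates, lines are 95% intervals and a filled point is called at an adjusted p under 0.05. The 1 filled point is E2f8 in WT oocytes at 0.83, and E2f5 lies at 0.01 and -0.05.

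Ordered by level, E2f4 ran from WT MII through WT GV and Patl2-KO MII down to Patl2-KO GV. Adjacent groups did not overlap, but Patl2-KO MII and Patl2-KO GV were 0.03 apart at their nearest arrays and WT MII and WT GV did not differ by the adjusted test. E2f1 had the order WT MII, WT GV, Patl2-KO MII and Patl2-KO GV, in which WT GV (12.00) lay inside the range of Patl2-KO MII (11.91 to 12.02). Tfdp1 had the same order, with WT GV and both Patl2-KO groups overlapping or nearly so. E2f8 ran from WT MII through Patl2-KO MII and Patl2-KO GV to WT GV, where only the first step separated the arrays of neighbouring groups by more than 0.1. E2f2 ran from WT GV through WT MII and Patl2-KO MII, which overlapped one another, to a separate Patl2-KO GV group.

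The pattern of E2f4 over the 10 arrays was most like that of 5 genes among 5221 named clusters with a mean of at least 8. These were Tcl1b4 (Pearson r = 0.964), the BAF complex subunit Bcl7c (0.960), the ciliary transition zone gene Tctn2 (0.958), the glutamate receptor Grm2 (0.950) and Cks1b, a partner of cyclin-dependent kinases (0.948). The 10 points share 4 groups and the normalisation, and the genes were picked for the likeness, so r is a description. Of these 5, Tctn2 had the widest range, with 8.80 and 9.11 in WT GV and 7.26 to 7.85 in Patl2-KO GV oocytes.

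The genes around the E2F factors were read from lists, of which the pocket proteins and the DREAM and MuvB subunits come first. Of 11 genes, 9 had a cluster of their own. None was called between the genotypes at GV, at MII or in the average, where 0.121%, 0.829% and 1.89% of all clusters were. The list medians were -0.06, 0.03 and -0.01. The largest differences in the average were those of Rb1, the retinoblastoma protein that holds E2f1 to E2f3 in check, at -0.34 (limma, adjusted p = 0.0816) and of the MuvB subunit Lin9 at 0.33 (limma, adjusted p = 0.236). At MII they were those of Rbl1, which encodes p107, at -0.51 (limma, adjusted p = 0.499) and of Rbl2, which encodes p130, the usual partner of E2f4, at 0.51 (limma, adjusted p = 0.194). During maturation 1 of 9 rose in WT oocytes, against 7.15% of all clusters called, namely Rbl1 by 1.22 (limma, adjusted p = 0.0428), whose call was lost in 8 of 10 fits without 1 array. In Patl2-KO oocytes Lin37 (0.74), Rb1 (0.63), Lin54 (0.54) and Mybl2 (0.51) rose, 4 of 9, against 10.5% of all clusters. The call of Lin37 was lost in 7 of 10 such fits and that of Lin54 in 1.

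The cyclins, kinases and inhibitors of the G1/S step, which set the phosphorylation of the pocket proteins, held 18 measured genes of 19. Again none was called between the genotypes, against 0.121% of all clusters at GV, 0.829% at MII and 1.89% in the average. The list medians were -0.12 at GV, 0.01 at MII and -0.02 in the average. Only 8 of the 18 were above the negative controls on all arrays, and of these the phosphatase Cdc25a had the largest average difference, -0.65 (limma, adjusted p = 0.141). Its difference was -0.30 at GV and -1.005 at MII (limma, adjusted p = 0.151), and the latter passed the study's threshold. Cyclin D2, Ccnd2, was above the negative controls at GV alone, where it averaged 8.99 in WT and 10.21 in Patl2-KO oocytes. This difference of 1.21 (limma, adjusted p = 0.199) passed the study's threshold and was not called. In WT oocytes 4 of the 18 fell between GV and MII, against 7.15% of all clusters called: Ccnd2, cyclin E1 (Ccne1), which fell by 1.08, Cdk4, which fell by 0.87, and cyclin E2 (Ccne2), which fell by 0.49. Without 1 array the call was lost in 8 of 10 fits for Ccne1, in 7 for Ccne2 and in 2 for Cdk4. Since Ccnd2 was not above background on any MII array, its fall has only a bound, set against the 90th percentile of the negative controls: at least 6.50-fold lower in WT (limma, adjusted p = 0.000231) and at least 14.4-fold lower in Patl2-KO oocytes (limma, adjusted p = 3.43e-05). Of the 21 granulosa and cumulus cell markers, 18 were also below zero from GV to MII in WT and 13 in Patl2-KO oocytes. Of these markers 2 were called lower in WT, and 4 lower and 1 higher in Patl2-KO oocytes. The part of follicular cells in the fall of Ccnd2 was not tested. In Patl2-KO oocytes, where 10.5% of all clusters were called, Cdk2 and Skp2 of the G1/S list also changed and rose by 0.67 and 0.55, with the call lost in 5 and 3 of 10 fits. Whether the cyclin E genes and Cdk4 differed between the genotypes in this respect is not shown, because no cluster of the array was called for the genotype effect at MII minus that at GV (0% of clusters by limma's adjusted p, 5.99% at an unadjusted p under 0.05, and 1 member, E2f2, at the latter).

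Genes for DNA replication are the classical targets of E2F in dividing cells, and 20 of 22 were measured, all above background. Their median was -0.25 at GV, -0.14 at MII and -0.18 in the average, against 0.02, -0.02 and -0.00 for all clusters. Of the 20, 13, 14 and 13 were below zero. At an unadjusted p under 0.05 there were 9 at GV, 5 at MII and 12 in the average, in either direction. Of all clusters, 9.23%, 12.3% and 14.4% reached it, and these counts are no test of the list. In the average 1 was called, against 1.89% of all clusters. It was the origin licensing factor Cdc6, which fell by 0.51 (SE 0.08, limma, adjusted p = 0.0273), and whose call was lost in 8 of 10 fits without 1 array. In WT oocytes Prim1, the primase subunit, and Tyms, thymidylate synthase, fell at maturation by 1.82 and 1.27, 2 of 20 against 7.15% of all clusters. Prim1 lost its call in 1 of 10 fits without 1 array. In Patl2-KO oocytes 3 of 20 fell and 3 rose, against 10.5% of all clusters called. The largest of these differences were those of Prim1 (-2.27), the clamp loader subunit Rfc4 (-1.65), the helicase subunit Mcm3 (1.40) and Tyms (-1.11).

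E2f6 itself was not measurable. Of its 10 PRC1.6 partners, 9 were measured. None was called between the genotypes at GV, at MII or in the average, against 0.121%, 0.829% and 1.89% of all clusters. In maturation 1 of 9 was called in each genotype, against 7.15% of all clusters in WT and 10.5% in Patl2-KO oocytes. It was Max, the partner of Mga, which rose by 0.62 in WT and 0.47 in Patl2-KO oocytes. Max lost its call in WT in 3 of 10 fits without 1 array. Of 5 germline genes that E2f6 represses in somatic cells, 3 were measured. None of the 3 was called between the genotypes, where 0.121% (GV), 0.829% (MII) and 1.89% (average) of all clusters were. In maturation 1 of the 3 was called in WT, against 7.15% of all clusters, and 2 in Patl2-KO oocytes, against 10.5%. Slc25a31 fell by 0.97 in WT (limma, adjusted p = 0.00713) and by 0.90 in Patl2-KO oocytes (limma, adjusted p = 0.00251). Smc1b fell by 1.15 in Patl2-KO oocytes (limma, adjusted p = 0.00569).

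Both E2F cofactors listed were measured. Between the genotypes 1 of the 2 was called at GV, at MII and in the average, against 0.121%, 0.829% and 1.89% of all clusters. Hcfc1, a chromatin coregulator that E2F proteins recruit, rose in Patl2-KO oocytes by 0.87 (SE 0.09, limma, adjusted p = 0.0260) at GV and by 0.87 (limma, adjusted p = 0.0124) at MII. Its average over both stages, 0.87 (SE 0.06, limma, adjusted p = 0.00232), stayed called in all 10 fits without 1 array, whereas the call at GV was lost in 5 and that at MII in 1. Eapp, a phosphoprotein that binds E2F factors, measured 0.74 (limma, adjusted p = 0.0504) at MII and 0.41 (limma, adjusted p = 0.0680) in the average. During maturation both were called in each genotype, against 7.15% of all clusters in WT and 10.5% in Patl2-KO oocytes. Hcfc1 rose by 0.70 in WT and 0.69 in Patl2-KO oocytes, and Eapp fell by 1.33 and 0.68.

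**Figure D5:**
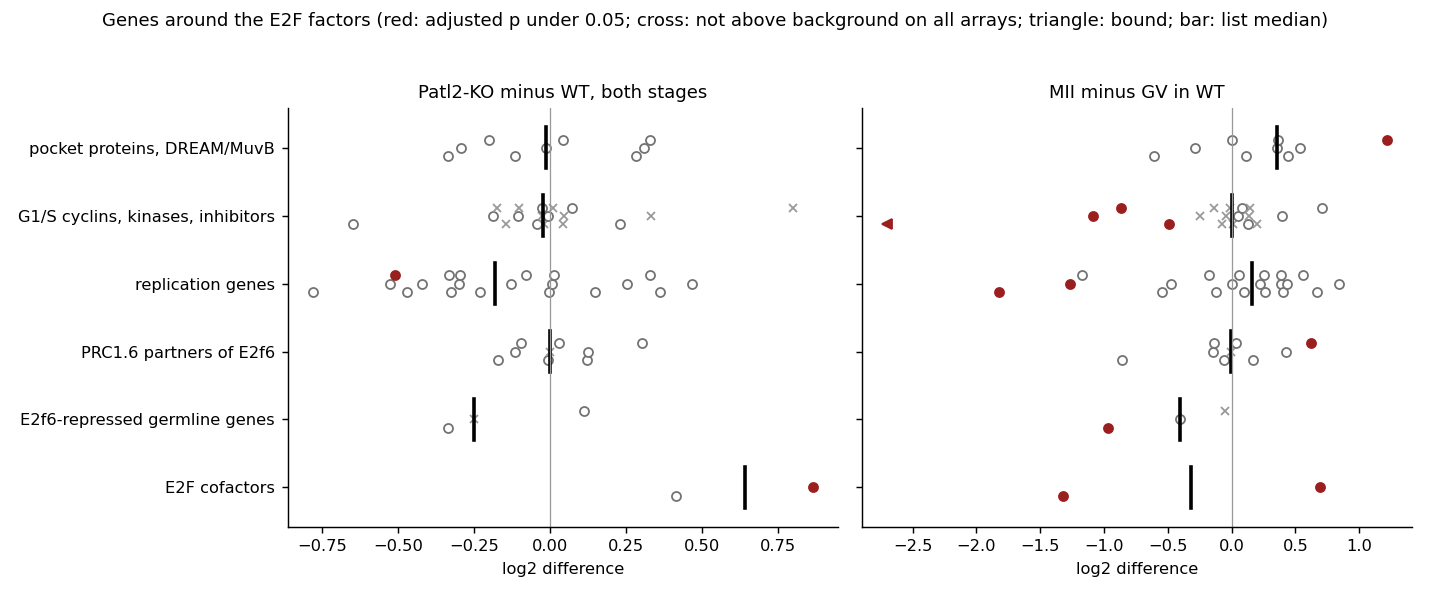
Genes of the 6 lists around the E2F factors: Patl2-KO minus WT averaged over both stages and MII minus GV in WT oocytes (x axes, log2 difference; each point a gene, red where the adjusted p is under 0.05, crosses are genes not above background on all arrays, the triangle is a bound and bars are list medians over all measured genes). Between the genotypes 2 points are red, Cdc6 at -0.51 and Hcfc1 at 0.87, and in maturation Ccnd2, not above background at MII, is drawn at its bound.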

How the data were processed

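The deposited values are log2 levels that the authors made in Affymetrix Expression Console, by RMA, from 10 one-colour Clariom D mouse arrays, that is with background correction, quantile normalisation and probe summary over the whole set. The study's raw intensities and its exon-level data are not analysed here. Gene names came from the platform annotation, which gave 30638 clusters 1 gene, 2176 several and 33142 none. Control features (6732) were left out. A member counted as measured above the 90th percentile of 5222 negative control features of each array.

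limma 3.58.1 in R 4.3.3 (lmFit, contrasts, eBayes with 2.02 prior beside 6 residual degrees of freedom) was fitted to the 10 arrays together. Tests were two-sided, and p-values were adjusted by the Benjamini-Hochberg method over 65956 clusters. It was tested on simulated data. Figures used matplotlib.

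The members and lists were chosen with earlier results of these data known. All 10 members are named, with Patl2 as the check of the labels. A list gives its counts and up to 4 of its called genes with the largest difference, or up to 2 where none was called, and both cofactors are given. The 5 genes most like E2f4 follow Pearson's r. Alternatives were a replicate block, further quantile, cyclic loess or median scaling, filters on level or annotation, trended and robust eBayes, array weights, the compared groups alone, the ANOVA of the methods, the mean over clusters of a gene, and leaving out each array.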

Additional observations from a re-analysis of the deposited data

How the results depend on the processing

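With 2 or 3 arrays a group, each array weighs on the calls, and a lone array left in a WT group is assumed to vary like the other groups. The average genotype difference of E2f4 stayed called in all 10 other alternatives run on it (adjusted p = 0.00275 to 0.0204) and without any 1 array. By the ANOVA of the methods, E2f4 was not called at GV (adjusted p = 0.593) or MII (0.430). The count of members called for the genotype effect at MII minus that at GV, and that past the study's threshold for maturation in Patl2-KO oocytes, stayed at 0 in every setting run on them. Other counts moved as follows.

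At GV, 1 member (E2f4) was called in place of 0 with a mean level of at least 6 or at least 8. At MII, 1 (E2f4) was called with quantile normalisation once more, cyclic loess, either level filter or clusters of 1 gene, and the study's threshold held 0 members with quantile normalisation or median centring. In the average, 2 (E2f4 and E2f1) were called with cyclic loess, either filter or clusters of 1 gene. For MII against GV in WT, quantile normalisation gave 6 calls and 1 member past the study's threshold, cyclic loess and the filter at 8 gave 2 calls, and median centring, the compared groups alone and the ANOVA of the methods gave 0. For MII against GV in Patl2-KO, the replicate block gave 2 calls (E2f2 and E2f4), quantile normalisation 6, either filter 2, and cyclic loess, clusters of 1 gene and array weights 1. The filters and clusters of 1 gene test fewer clusters. The cause of the other changes was not tested. E2f5 in this comparison turned from -0.05 to 0.28 with quantile normalisation.

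Same-numbered samples deviated together with r of -0.04 to 0.13, so the numbers were not taken as pairs. The block changed no other count of members called.

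Without 1 array, calls ranged from 0 to 0 at GV, 0 to 0 at MII, 1 to 2 in the average, 0 to 1 for maturation in WT and 0 to 1 in Patl2-KO oocytes. The added calls were E2f1 in the average without Patl2-KO GV replicate 2 (-0.39, adjusted p = 0.0421), E2f1 in WT maturation without Patl2-KO GV replicate 3 (0.0493), E2f2 in Patl2-KO maturation without Patl2-KO GV replicate 2 (0.64, adjusted p = 0.0355) and E2f4 without Patl2-KO MII replicate 1 (0.67, adjusted p = 0.0197). Members past the study's threshold ranged from 0 to 1 at GV, at MII, in the average and for maturation in WT. The E2f8 call in WT maturation was also lost with median centring (adjusted p = 0.0501), the compared groups alone (0.252) and the ANOVA of the methods (0.550).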
